A study of Mus musculus with 24 samples.

Results

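Basophils and mast cells are granulocytes that store proteases and histamine and that release them when IgE bound to their high-affinity receptor is cross-linked. In the bone marrow both descend from Kit-positive progenitors, in which some of their granule genes are already transcribed. The measurements below concern 10 genes of these cells (Mcpt8, Prss34, Cpa3, Cma1, Ms4a2, Fcer1a, Fcer1g, Hdc, Il4ra and Epx), out of 17741 genes with a named spot set on the array. They were taken from a list of symbols and matched to the platform's annotation, and each was represented by 1 spot set (a probe of the array). The choice was made with the difference between BAP1 KO and WT mice in view, so that difference is given for the members as values and standard errors, and the count past the threshold of the fit over all genes is a description.

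RNA came from sorted bone marrow cells of C57BL/6 mice carrying the BAP1 KO or the BAP1 WT genotype. BAP1 is a nuclear deubiquitinase, and tamoxifen had been injected so that it would be deleted throughout the body. Per the labels, the 4 groups were LSK cells of KO mice (mice 2 and 4), LSK cells of WT mice (mice 1 and 3), myeloid progenitors of KO mice (mice 7 and 8) and myeloid progenitors of WT mice (mice 5 and 6). LSK cells are lineage-negative, Sca1-positive and Kit-positive and are enriched for hematopoietic stem cells, whereas the myeloid progenitors are lineage-negative, Sca1-negative and Kit-positive. The promoter of the recombinase, the age of the mice and the time since injection are not stated by any source used. Each mouse was measured on 3 one-colour arrays, and the mean of these is the value of the mouse. All values are log2 expression values as the authors deposited them, so that 1 unit is a doubling.

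The populations were checked first. Of 10 measured genes of the LSK and progenitor gate, 8 were called higher in LSK cells than in myeloid progenitors of WT mice (limma, adjusted p under 0.05). Over all genes this share was 8.08%. The median difference of the 10 genes was 2.60. The gene of Sca1 itself was not matched to a spot set. The Bap1 probe read 11.96 and 11.84 in KO LSK cells, against 11.55 and 11.45 in WT LSK cells, and its position relative to the deleted part is not known, so it does not check the labels. The Y-linked gene Kdm5d read 7.88 in mouse 1 and 8.15 in mouse 5 but between 5.93 and 6.02 in the other 6 mice. Xist, the other check of the mice, read 7.37 in mouse 1 and 7.28 in mouse 5, against 7.51 to 7.87 in the other 6. Mice 1 and 5 were both WT, so each WT group held 1 mouse with a Kdm5d signal and the KO groups held none. The genotype comparison is thus in part also between mice with and without this signal, and fits without mice 1 and 5 are given below. Arrays of the same mouse correlated at 0.989 to 0.996. In sorted bulk samples, fewer cells of a type and less RNA per cell cannot be told apart.

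The granule proteases Mcpt8 and Prss34 stood at opposite ends of the list. Mcpt8, mast cell protease 8, is a serine protease used in mice as a marker of basophils. Its level was 13.05 and 13.26 in KO LSK cells, against 10.76 and 10.71 in WT LSK cells. In myeloid progenitors it was 13.77 and 13.87 in KO mice, against 12.47 and 12.26 in WT mice. The 4 groups did not overlap, and their order was KO myeloid progenitors, KO LSK cells, WT myeloid progenitors and WT LSK cells, from high to low. Mcpt8 was thus higher in KO than in WT mice by 2.42 ± 0.18 (SE, 5.35-fold) in LSK cells and by 1.46 ± 0.18 (2.75-fold) in myeloid progenitors. Each SE is that of the limma fit, in which the spread is pooled over the 4 groups of 2 mice.

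Prss34, a tryptase-type protease of mouse basophils and mast cell precursors, had the opposite pattern. It read 8.36 and 8.37 in KO LSK cells, against 11.07 and 11.23 in WT LSK cells. In myeloid progenitors it read 10.25 and 10.23 in KO mice, against 11.93 and 12.02 in WT mice. The groups again did not overlap, and here both WT groups lay above both KO groups, with myeloid progenitors above LSK cells of the same genotype. The change was -2.79 ± 0.19 in LSK cells (6.89-fold lower in KO) and -1.73 ± 0.19 in myeloid progenitors (3.32-fold lower in KO). The KO minus WT changes of the 2 proteases therefore lay 5.20 apart in LSK cells and 3.19 apart in myeloid progenitors.

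The single arrays, which repeat the same mice, had these ranges. The 6 arrays of KO LSK cells ran from 12.99 to 13.39 for Mcpt8, against 10.57 to 10.84 in WT LSK cells. For Prss34 they ran from 8.22 to 8.50 in KO LSK cells, against 10.84 to 11.31 in WT LSK cells. With any 1 of the 8 mice left out, the change of Mcpt8 stayed between 2.31 and 2.52 in LSK cells and between 1.36 and 1.56 in myeloid progenitors. That of Prss34 stayed between -2.86 and -2.71 in LSK cells and between -1.77 and -1.69 in myeloid progenitors.

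**Figure D1:**
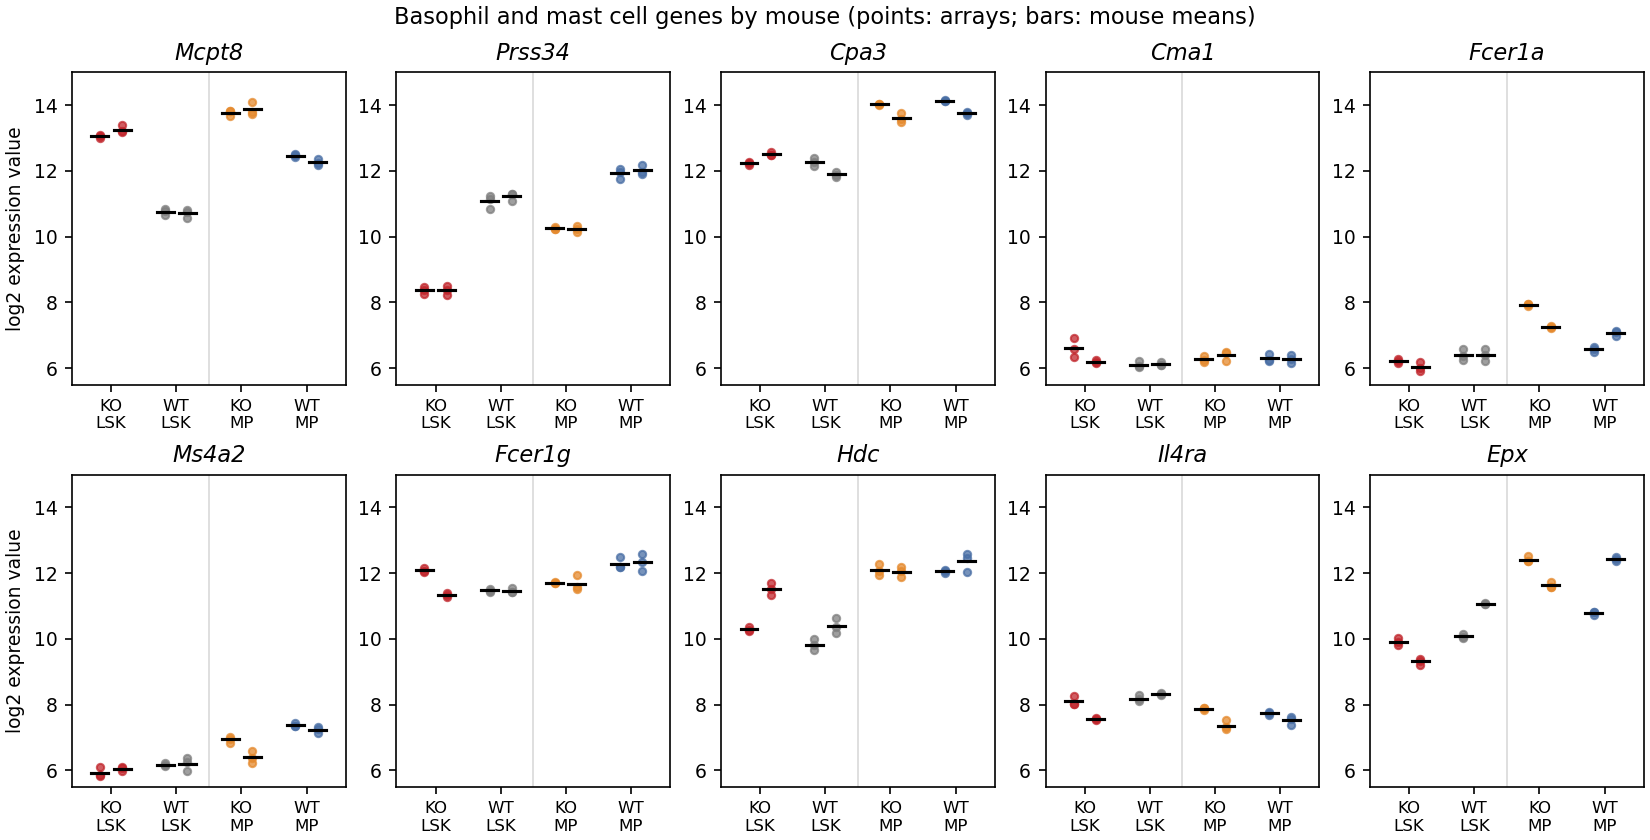
Log2 expression value of each of the 10 genes (vertical axis) in the 4 groups (KO and WT LSK cells, KO and WT myeloid progenitors, MP), with a point for each array and a bar for each mouse mean. Mcpt8 lies higher and Prss34 lower in KO than in WT mice of both populations, while the arrays of Cpa3 lie highest in myeloid progenitors of both genotypes.

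The remaining granule proteases had smaller differences between the genotypes. Cpa3, carboxypeptidase A3, is made by mast cells, basophils and their progenitors. It read 12.24 and 12.52 in KO LSK cells, against 12.27 and 11.89 in WT LSK cells, and the mice overlapped. In myeloid progenitors it read 14.02 and 13.61 in KO mice, against 14.14 and 13.75 in WT mice, which overlapped too. The changes were 0.30 ± 0.22 in LSK cells and -0.13 ± 0.22 in myeloid progenitors. Cma1, the mast cell chymase, stayed close to the dim end of the arrays, whose 25th percentile was 6.15 to 6.18. It read 6.62 and 6.20 in KO LSK cells against 6.10 and 6.12 in WT LSK cells, and between 6.27 and 6.39 in all 4 mice of the myeloid progenitor groups.

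The promoters of the 3 brighter proteases are shown because these genes share a lineage but moved differently with the genotype. Each is 300 bases long, 250 before to 50 after the start of the gene, from RefSeq on the build GRCm38.p6, 5′ to 3′ along the gene. They lie at chr14:56085148-56085447 on the minus strand for Mcpt8, chr17:25298144-25298443 on the plus strand for Prss34 and chr3:20242132-20242431 on the minus strand for Cpa3. Capitals mark matches to a GATA motif (GATA with A or T before it and A or G after it, on either strand), the letters bound by the GATA factors of these lineages.
Mcpt8: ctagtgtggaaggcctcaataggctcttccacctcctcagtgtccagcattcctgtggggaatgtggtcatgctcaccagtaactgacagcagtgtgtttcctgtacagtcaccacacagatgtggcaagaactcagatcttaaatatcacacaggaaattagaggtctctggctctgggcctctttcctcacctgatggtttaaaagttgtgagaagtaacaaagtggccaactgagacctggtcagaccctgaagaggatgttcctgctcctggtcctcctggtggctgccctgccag
Prss34: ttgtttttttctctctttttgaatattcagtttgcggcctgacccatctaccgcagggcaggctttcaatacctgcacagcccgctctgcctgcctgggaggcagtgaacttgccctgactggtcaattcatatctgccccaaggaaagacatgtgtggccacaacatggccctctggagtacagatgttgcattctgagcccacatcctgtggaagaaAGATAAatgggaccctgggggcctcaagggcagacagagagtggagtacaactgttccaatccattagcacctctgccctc
Cpa3: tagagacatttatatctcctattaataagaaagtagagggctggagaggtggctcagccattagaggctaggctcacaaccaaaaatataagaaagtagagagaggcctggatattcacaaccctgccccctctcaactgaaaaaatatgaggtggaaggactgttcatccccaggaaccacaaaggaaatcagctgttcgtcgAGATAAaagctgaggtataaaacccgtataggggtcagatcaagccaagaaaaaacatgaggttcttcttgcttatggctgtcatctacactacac

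The window of Mcpt8 held no GATA match, that of Prss34 held 1 at bases 220 to 225 and that of Cpa3 held 1 at bases 205 to 210, counted from the 5′ end. Over all members, 6 of 10 windows held a match (Prss34, Cpa3, Cma1, Fcer1a, Ms4a2 and Hdc), beside 29.76% of 32851 RefSeq windows of the same length. A RUNX motif (TGTGGT or TGCGGT, either strand) was present in 7 of 10, beside 22.41% of windows, and an E-box (CANNTG) in 9 of 10, beside 72.31%. A C/EBP motif (TTNNGNAA) was present in 1 of 10, beside 40.68%, a PU.1 motif (GAGGAA) in 2 of 10, beside 28.28%, and a STAT motif (TTCNNNGAA) in 0 of 10, beside 8.298%. These matches describe letters only, and binding was not measured.

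The IgE receptor has 3 subunits on the list, given here as values. Fcer1a encodes the alpha chain, which binds IgE. It read 6.21 and 6.03 in KO LSK cells, against 6.40 and 6.40 in WT LSK cells, all near the dim end. In myeloid progenitors it read 7.93 and 7.25 in KO mice, against 6.57 and 7.07 in WT mice, so that KO mice lay below WT mice in LSK cells and above them in myeloid progenitors. The changes were -0.28 ± 0.23 in LSK cells and 0.77 ± 0.23 in myeloid progenitors.

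Ms4a2 encodes the beta chain, which amplifies the signal. It read 5.92 and 6.05 in KO LSK cells against 6.17 and 6.20 in WT LSK cells, and 6.94 and 6.41 in KO myeloid progenitors against 7.38 and 7.23 in WT myeloid progenitors. Its LSK values lay at the dim end in both genotypes. The changes were -0.20 ± 0.16 in LSK cells and -0.63 ± 0.16 in myeloid progenitors, without overlap of the mice. Fcer1g encodes the signalling gamma chain, which other Fc receptors use as well. In KO LSK cells it read 12.09 and 11.34, on either side of the 11.47 of both WT LSK mice. In myeloid progenitors it read 11.70 and 11.67 in KO mice against 12.28 and 12.32 in WT mice, a change of -0.62 ± 0.24 without overlap.

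Hdc encodes histidine decarboxylase, which makes histamine. It read 10.30 and 11.51 in KO LSK cells against 9.83 and 10.39 in WT LSK cells, and 12.09 and 12.04 in KO myeloid progenitors against 12.06 and 12.36 in WT myeloid progenitors. The genotypes overlapped in both populations, and the 2 KO LSK mice differed from each other by more than the change of 0.80 ± 0.36. Il4ra encodes the receptor chain shared by IL-4 and IL-13. It read 8.10 and 7.57 in KO LSK cells against 8.18 and 8.32 in WT LSK cells, and 7.88 and 7.36 in KO myeloid progenitors against 7.74 and 7.53 in WT myeloid progenitors, with changes of -0.42 ± 0.23 and -0.01 ± 0.23.

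Epx, eosinophil peroxidase, belongs to the neighbouring eosinophil lineage and varied most from mouse to mouse. It read 9.92 and 9.31 in KO LSK cells against 10.07 and 11.07 in WT LSK cells. In myeloid progenitors it read 12.41 and 11.63 in KO mice against 10.79 and 12.43 in WT mice. The changes were -0.96 ± 0.64 in LSK cells and 0.41 ± 0.64 in myeloid progenitors, and the WT myeloid progenitor mice alone spanned the KO values.

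**Figure D2:**
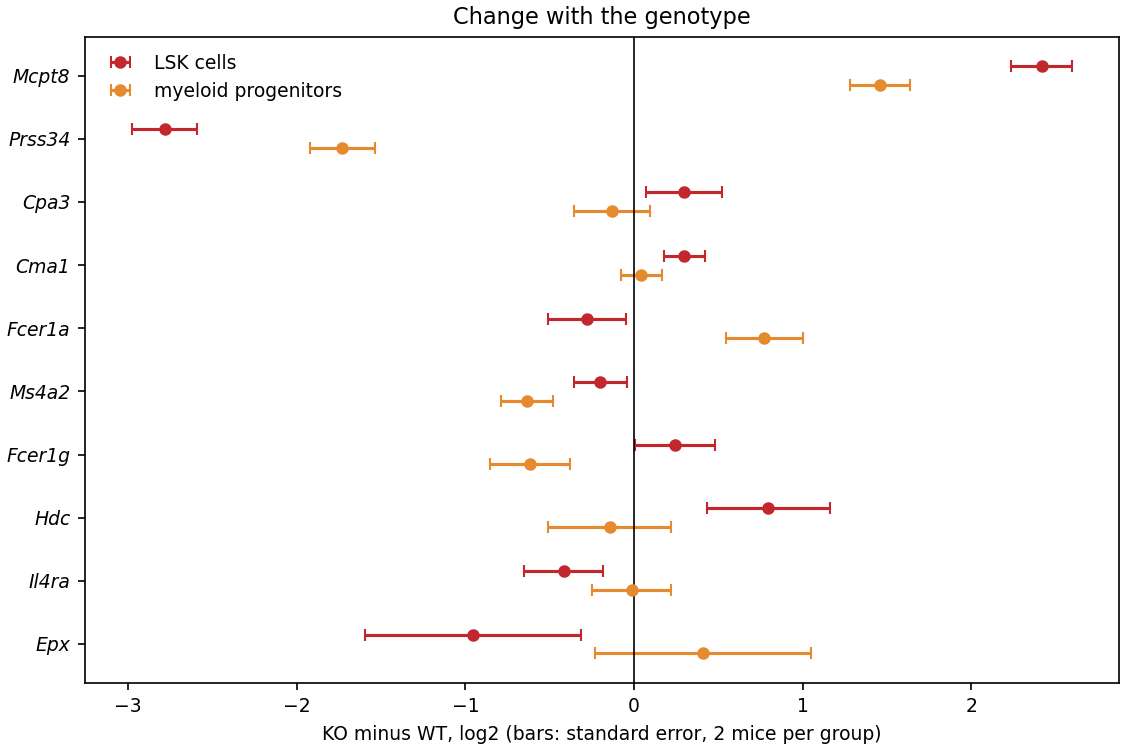
KO minus WT change of each gene on the log2 scale (horizontal axis) in LSK cells and in myeloid progenitors. Bars are limma standard errors, with the spread pooled over the 4 groups of 2 mice. Mcpt8 lies at 2.42 and 1.46 and Prss34 at -2.79 and -1.73, outside the range of -0.96 to 0.80 that holds the other 8 genes.

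In the fit over all genes (limma, adjusted p under 0.05), 1 member lay past the threshold as higher and 1 as lower in KO LSK cells, namely Mcpt8 and Prss34, which is a description of the members and no test of them. Of all 17741 genes, 1.74% were called higher and 2.9% lower. In myeloid progenitors the same 2 members lay past it, beside 0.908% of genes higher and 1.74% lower. In 7 of 10 members both KO mice lay on one side of both WT mice in LSK cells (2 higher and 5 lower), beside 46.6% of all genes, and in 5 of 10 in myeloid progenitors (2 higher and 3 lower), beside 41%. Since the members were chosen on this contrast, nothing is read from these counts. The median change of the 10 members was 0.02 in LSK cells and -0.07 in myeloid progenitors, beside 0.02 and 0.00 over all genes.

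How far the genotype change differed between the populations was read from the same fit. The members were chosen with the genotype change in view, so these values and adjusted p-values describe them and are no test of them. The change in LSK cells minus that in myeloid progenitors was 0.96 ± 0.25 for Mcpt8 (limma, adjusted p = 0.324), -1.05 ± 0.27 for Prss34 (adjusted p = 0.319) and -1.05 ± 0.32 for Fcer1a (adjusted p = 0.538). Of the 10 members 0 passed, beside 0.062% of all genes called at the same threshold. An unadjusted p under 0.05 was found for 4 members, and no share over all genes at that looser threshold is given. When the 24 arrays entered singly, blocked by mouse, 3 members passed: Mcpt8 (limma adjusted p = 0.00259), Prss34 (0.0024) and Fcer1a (0.00701). The share of all genes called in that fit is not given here, so nothing is read from this count. The larger changes of Mcpt8 and Prss34 in LSK cells are therefore called only when arrays, not mouse means, are the observations. That fit ties the 3 arrays of a mouse by 1 correlation over all probes, 0.442, so its p-values can understate the spread between mice.

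Several members were lower in LSK cells than in myeloid progenitors, in both genotypes. No mouse gave both populations, so this comparison is also between mice. The members were chosen with earlier results of these data known. The counts and adjusted p-values of this comparison therefore describe them and are no test of them. In WT mice 6 of 10 members were lower in LSK cells than in myeloid progenitors and 0 were higher, beside 5.46% of all genes lower and 8.08% higher. Their median difference was -0.94, beside -0.03 over all genes. The 6 were Hdc (-2.10 ± 0.36, limma adjusted p = 0.0061), Cpa3 (-1.86 ± 0.22, adjusted p = 0.0005), Mcpt8 (-1.63 ± 0.18, adjusted p = 0.0003), Ms4a2 (-1.12 ± 0.16, adjusted p = 0.0012), Fcer1g (-0.83 ± 0.24, adjusted p = 0.0426) and Prss34 (-0.83 ± 0.19, adjusted p = 0.0179). Cma1, Fcer1a, Il4ra and Epx did not pass, and Il4ra had the only positive difference, 0.62 ± 0.23.

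Some of these calls were lost in fits with 1 mouse fewer, while the differences stayed of similar size. Fcer1g in WT mice passed in 2 of 8 such fits (lost without mouse 1, 3, 5, 6, 7 or 8), with differences of -0.85 to -0.81. Prss34 passed in 4 of 8 (lost without mouse 1, 3, 5 or 6), with differences of -0.90 to -0.75. Hdc passed in 7 of 8 (adjusted p = 0.0511 without mouse 6), with differences of -2.38 to -1.82. Mcpt8, Cpa3 and Ms4a2 passed in all 8. Without mice 1 and 5 together, the WT groups hold 1 mouse each and 2 members passed, Mcpt8 and Cpa3. The LSK values of Ms4a2 (5.92 to 6.20) and Fcer1a (6.03 to 6.40) lay near the arrays' 25th percentile, and whether these probes were above background there is not known, so the sizes of their differences between the populations are uncertain.

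In KO mice 5 of 10 members were lower in LSK cells than in myeloid progenitors and 0 were higher, beside 5.49% of all genes lower and 7.26% higher. The median difference was -0.92, beside -0.01 over all genes. As in WT mice, these counts and adjusted p-values describe the members and are no test of them. The 5, with the same limit for Fcer1a and Ms4a2, were Prss34 (-1.88 ± 0.19, limma adjusted p = 0.0003), Fcer1a (-1.47 ± 0.23, adjusted p = 0.0046), Cpa3 (-1.44 ± 0.22, adjusted p = 0.0026), Ms4a2 (-0.68 ± 0.16, adjusted p = 0.0176) and Mcpt8 (-0.67 ± 0.18, adjusted p = 0.0337). Epx differed by -2.41 ± 0.64 and Hdc by -1.16 ± 0.36, with adjusted p of 0.0674 and 0.0729. Mcpt8 passed in 3 of 8 fits without 1 mouse (lost without mouse 1, 2, 3, 7 or 8), with differences of -0.77 to -0.56. Ms4a2 passed in 6 of 8 (lost without mouse 2 or 7), with differences of -0.95 to -0.42, while Prss34, Cpa3 and Fcer1a passed in all 8. Hdc passed without mouse 4 and Epx without mouse 5 or 6.

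**Figure D3:**
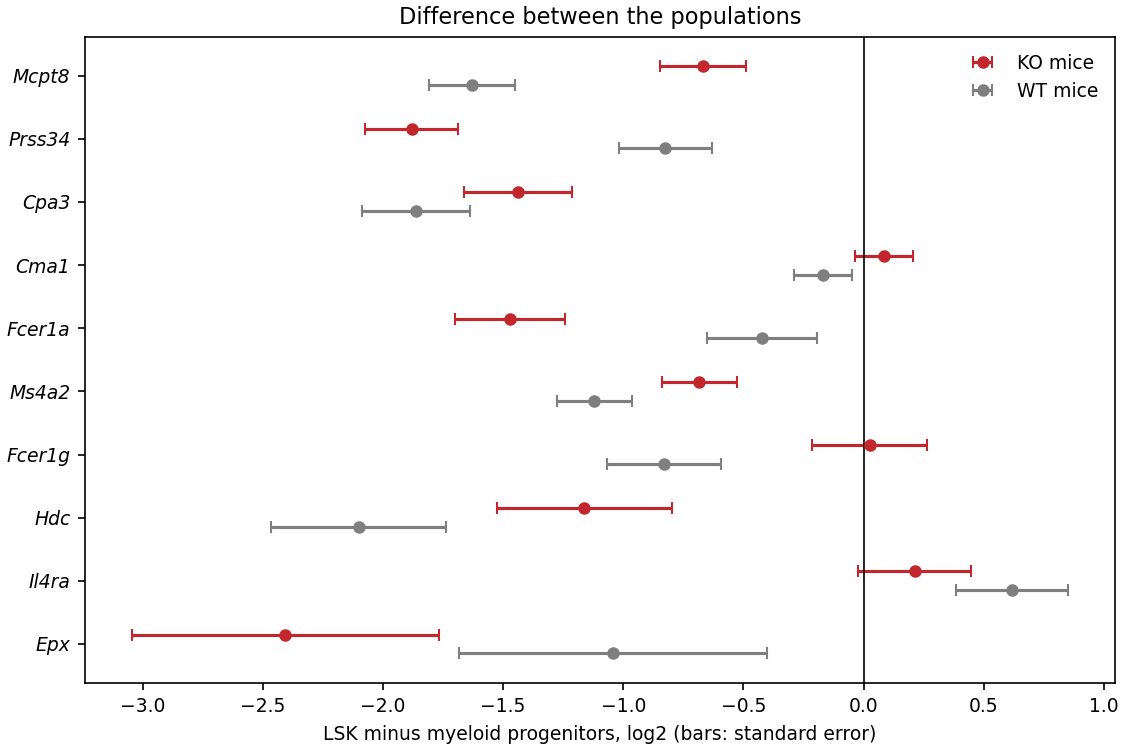
LSK minus myeloid progenitor difference of each gene on the log2 scale (horizontal axis), in KO and in WT mice. Bars are limma standard errors, with the spread pooled over the 4 groups of 2 mice. Mcpt8 lies at -0.67 in KO and -1.63 in WT mice, and Prss34 at -1.88 in KO and -0.83 in WT mice.

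Genes whose 8 mouse means were most like those of 3 members were looked up among 4771 genes with a span of at least 1. For Mcpt8 they were Itpka (Pearson r = 0.978), Mmp14 (0.978), Csf2rb (0.971), Dnajc17 (0.966) and Smim4 (0.965). Csf2rb encodes the beta chain shared by the receptors of IL-3, IL-5 and GM-CSF, and Mmp14 a membrane-bound metalloproteinase. For Prss34 they were Rcan1 (0.986), a regulator of calcineurin, Cldnd1 (0.984), Purg (0.982), Trip4 (0.974) and Fbxo30 (0.969). For Cpa3 they were Rgs9bp (0.989), Zfp568 (0.987), Mtm1 (0.987), Reps2 (0.984) and Nudt21 (0.983). The 8 points are 4 groups of 2 mice in 1 normalised table, so a likeness here is a description of the group means.

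**Figure D4:**
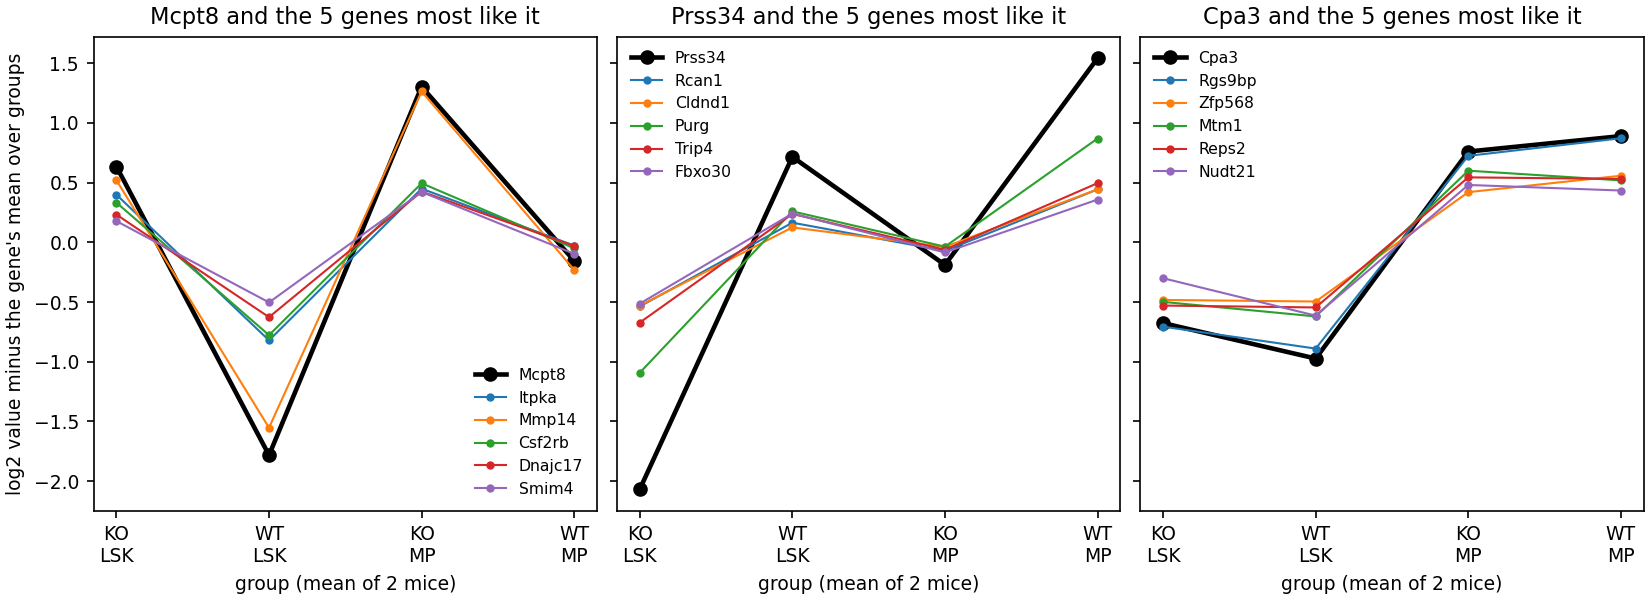
Group means of Mcpt8, Prss34 and Cpa3 (black) and of the 5 genes most like each (colours), as log2 value minus the gene's mean over the groups (vertical axis), in KO and WT LSK cells and KO and WT myeloid progenitors (MP). Mmp14 follows Mcpt8 with a similar span, while the genes like Prss34 span less than it.

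Chromosomal neighbours were compared because Mcpt8 and Cma1 lie in 1 protease cluster on chromosome 14 and Prss34 among tryptase genes on chromosome 17; this comparison was chosen after the values were seen. Of the 10 protein-coding genes on each side of Mcpt8, 11 of 20 were measured. In LSK cells 1 of them rose in KO mice (Ctsg, cathepsin G, by 1.21 ± 0.29, limma adjusted p = 0.047) and 0 fell. In myeloid progenitors Sdr39u1 rose by 1.15 ± 0.20 (adjusted p = 0.012) and Gzmb, granzyme B, fell by 1.87 ± 0.21 (adjusted p = 0.00097). Around Prss34, 18 of 20 were measured and 0 were called in either direction in either population by limma, including Tpsb2 and Tpsg1, tryptase genes of mast cells. At an unadjusted p under 0.05 there was 1 gene around Prss34 in each population, Cacna1h in LSK cells and Baiap3 in myeloid progenitors. Around Mcpt8 there were 3 in LSK cells (Ctsg, Cma1 and Sdr39u1) and 2 in myeloid progenitors (Gzmb and Sdr39u1). By adjusted p, 1.74% of all genes were called higher and 2.9% lower in LSK cells. In myeloid progenitors these shares were 0.908% and 1.74%. No share over all genes at the unadjusted threshold is given, so nothing is read from the counts of neighbours.

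**Figure D5:**
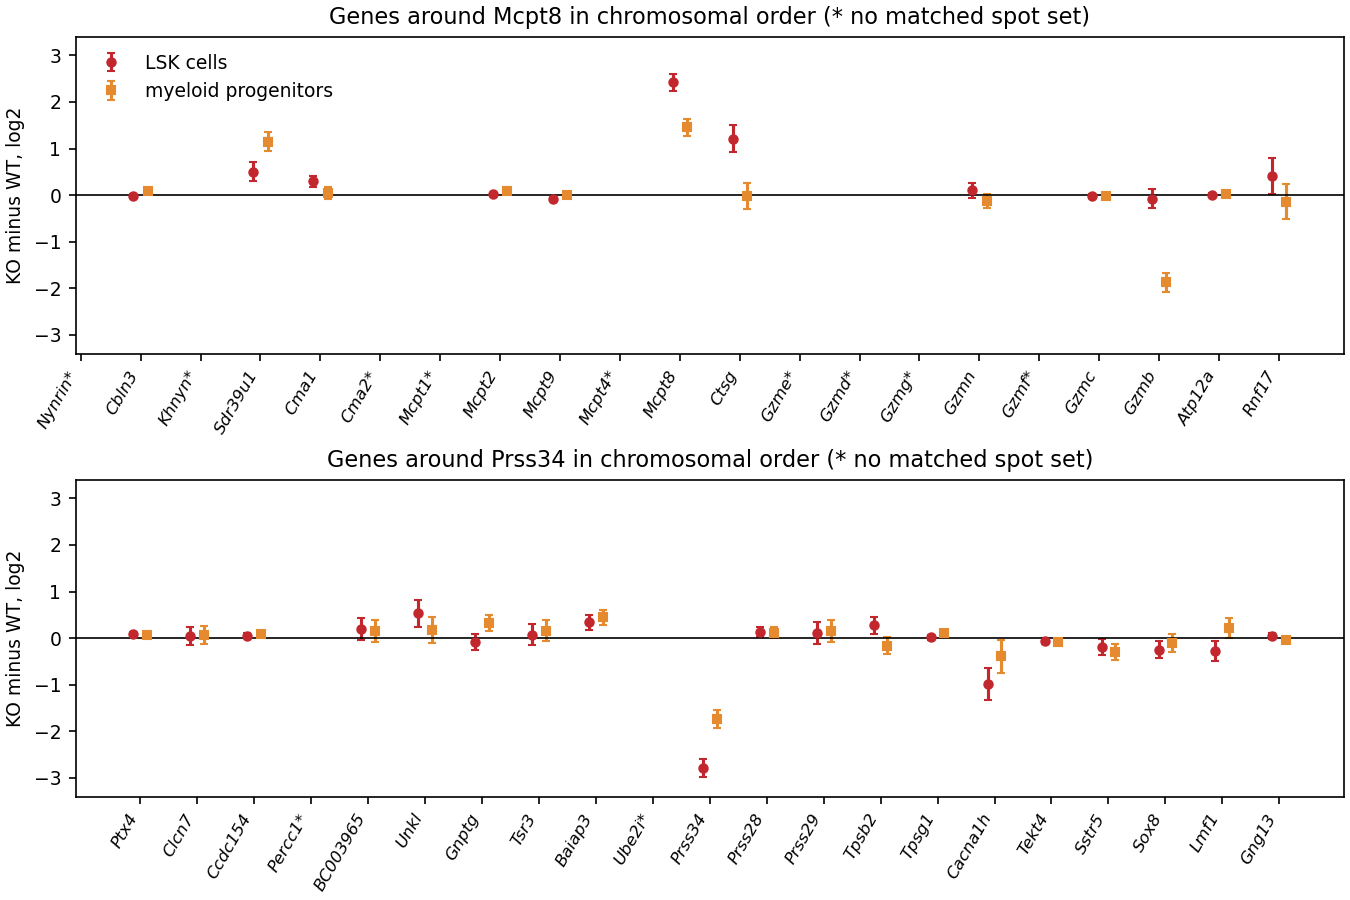
KO minus WT change on the log2 scale (vertical axis, with standard errors) of the genes around Mcpt8 (upper panel) and Prss34 (lower panel) in chromosomal order, in LSK cells and myeloid progenitors. Mcpt8 stands at 2.42 and 1.46 and Prss34 at -2.79 and -1.73, and the neighbours lie closer to 0 except Gzmb at -1.87 in myeloid progenitors.

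The wider pathway was read from lists of other genes. Of 251 listed genes 209 were measured, and 13 rose and 14 fell in KO LSK cells, while 7 rose and 12 fell in KO myeloid progenitors. The calls came to 12.9% of the listed genes in LSK cells and 9.09% in myeloid progenitors; over all genes 1.74% rose and 2.9% fell in LSK cells, and 0.908% rose and 1.74% fell in myeloid progenitors. Their median change was 0.01 in both, beside 0.02 and 0.00 over all genes. Of these calls, 10 of 27 in LSK cells and 2 of 19 in myeloid progenitors held in every fit without 1 mouse. Without mice 1 and 5 together, 10 of 27 and 7 of 19 held. The lists were chosen with earlier results of these data known, so nothing is read from the shares above or from the counts per list below. The genes below are named with their log2 change, its SE and the limma adjusted p.

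Among 21 measured genes of IgE receptor signalling, 1 rose and 2 fell in LSK cells, and 1 rose and 0 fell in myeloid progenitors. Gab2, a docking protein of the receptor's signal, rose by 1.32 ± 0.22 in LSK cells (adjusted p = 0.0075) and by 1.07 ± 0.22 in myeloid progenitors (adjusted p = 0.030, lost without mouse 5, 6 or 8). Without mice 1 and 5 the change in LSK cells was 1.43 and no longer passed (adjusted p = 0.062). A dimmer probe of Gab2 changed by 0.05 and -0.11. The adaptors Lcp2 and Grap2 fell in LSK cells by 0.96 ± 0.17 (adjusted p = 0.0096, lost without mouse 1 or 2) and 0.68 ± 0.10 (adjusted p = 0.0031).

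Among 10 measured Fc receptors and their partners, 1 rose and 1 fell in LSK cells, and 0 rose and 1 fell in myeloid progenitors. Fcer2a, the low-affinity IgE receptor, read 9.34 and 8.66 in KO LSK cells, against 7.74 and 7.45 in WT LSK cells, a rise of 1.41 ± 0.23 (adjusted p = 0.0060), while its dimmer probe changed by 0.10. Without mice 1 and 5 the change was 1.55 (adjusted p = 0.0501). Cd200r3, a basophil marker, fell by 0.35 in LSK cells and 0.38 in myeloid progenitors, but lay between 6.08 and 6.51 in all 8 mice, near the dim end. In LSK cells its call was lost without mouse 1, 2, 3, 4, 7 or 8. In myeloid progenitors its call was lost without mouse 5, 6, 7 or 8. A dimmer probe of Cd200r3 changed by -0.17 in LSK cells and -0.12 in myeloid progenitors and did not pass.

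Among 17 other granule proteases and proteoglycan genes, 1 rose and 1 fell in LSK cells and 0 rose and 1 fell in myeloid progenitors. These were Ctsg and Gzma (fell by 0.83 ± 0.20, adjusted p = 0.040) in LSK cells, and Gzmb in myeloid progenitors. The call of Gzmb held without any 1 mouse, whereas those of Ctsg and Gzma held in 1 of 8 fits each (Ctsg without mouse 3, Gzma without mouse 1). The mast cell genes Mcpt2, Mcpt9 and Tpsab1 stayed near the dim end in all groups.

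Of 18 measured genes of histamine and lipid mediators, 1 rose and 2 fell in LSK cells, and 0 rose and 1 fell in myeloid progenitors. Ltb4r1, a leukotriene receptor, rose by 1.21 ± 0.18 in LSK cells (adjusted p = 0.0039). Slc18a2, which loads histamine into granules, fell by 0.92 ± 0.21 in LSK cells (adjusted p = 0.035, lost without mouse 1, 2, 3, 4, 7 or 8). Hpgds, a prostaglandin synthase, fell there by 0.67 ± 0.14 (adjusted p = 0.022, lost without mouse 1, 2 or 4). A dimmer probe of Hpgds changed by -0.25 in LSK cells and did not pass. Hnmt, which inactivates histamine, fell by 1.32 ± 0.30 in myeloid progenitors (adjusted p = 0.045, lost without mouse 1, 3, 5, 7 or 8).

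All 24 listed transcription factors were measured, and 1 rose and 1 fell in LSK cells, while 0 rose and 2 fell in myeloid progenitors. Mitf, a factor needed for mast cells in mice, read 7.61 and 7.66 in KO LSK cells against 8.63 and 8.75 in WT LSK cells, and 7.72 and 7.68 in KO myeloid progenitors against 9.41 and 8.78 in WT myeloid progenitors. It fell by 1.05 ± 0.22 in LSK cells (adjusted p = 0.025, lost without mouse 1, 2, 3 or 4) and by 1.40 ± 0.22 in myeloid progenitors (adjusted p = 0.0080, lost without mouse 8). Its relative Tfec fell by 0.98 ± 0.22 in myeloid progenitors (adjusted p = 0.045, lost without mouse 1, 3, 5, 6, 7 or 8). Cebpb rose by 1.04 ± 0.23 in LSK cells (adjusted p = 0.034, lost without mouse 1, 2, 3, 7 or 8). Gata2 changed by 0.29 in LSK cells and -0.10 in myeloid progenitors and did not pass.

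Of 24 measured cytokine and receptor genes of type 2 cells, 3 rose and 1 fell in LSK cells, and 0 rose and 1 fell in myeloid progenitors. The IL-3 receptor chains Il3ra and Csf2rb rose in LSK cells by 0.87 ± 0.21 (adjusted p = 0.045, lost in each of the 8 fits without 1 mouse) and 1.11 ± 0.20 (adjusted p = 0.012, lost without mouse 1 or 2). A further probe of Csf2rb changed by 0.61 and did not pass. Il18r1, the IL-18 receptor, rose by 1.26 ± 0.17 (adjusted p = 0.0026), and a further probe rose by 1.72. Il7r fell by 2.11 ± 0.24 in LSK cells (adjusted p = 0.0011) and by 1.61 ± 0.24 in myeloid progenitors (adjusted p = 0.0060, lost without mouse 8). The ligand genes Il4 and Il13 stayed near the dim end.

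Downstream of the IL-4 receptor, 21 genes were measured, and 2 rose in LSK cells and 4 in myeloid progenitors, with 0 falling in either. Irs2, an adaptor of this receptor, rose by 1.38 ± 0.23 in LSK cells (adjusted p = 0.0076, and 0.079 without mice 1 and 5 at a change of 1.39) and by 1.01 ± 0.23 in myeloid progenitors (adjusted p = 0.04998, lost without mouse 1, 3, 5, 6, 7 or 8). The cytokine feedback inhibitors Socs3 and Cish rose in myeloid progenitors by 2.18 ± 0.32 (adjusted p = 0.0051, lost without mouse 6) and 1.99 ± 0.32 (adjusted p = 0.0098, lost without mouse 5, 6 or 8). The chemokine Ccl17 rose there by 0.92 ± 0.15 (adjusted p = 0.0092, lost without mouse 5, 6 or 8). Retnla, a target of IL-4, rose by 0.25 in LSK cells at a dim level (adjusted p = 0.042, held only without mouse 4).

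Of 22 measured surface genes, 0 rose and 1 fell in LSK cells, and 0 rose and 3 fell in myeloid progenitors. Cd200r1, an inhibitory receptor, fell by 1.37 ± 0.22 in LSK cells (adjusted p = 0.0077) and by 1.19 ± 0.22 in myeloid progenitors (adjusted p = 0.021, lost without mouse 5, 7 or 8). Enpp3, the basophil and mast cell antigen CD203c, fell by 0.94 ± 0.14 in myeloid progenitors (adjusted p = 0.0049), and Cd34 by 1.18 ± 0.18 (adjusted p = 0.0065, lost without mouse 8).

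Markers of other cells moved as well. Of 19 measured neutrophil and monocyte granule genes, 2 rose in LSK cells (Elane, neutrophil elastase, by 1.91 ± 0.39, lost without mouse 1, 4, 5 or 6, and Ctsg) and 0 fell, and 1 rose in myeloid progenitors (Lcn2 by 1.14 ± 0.21, lost without mouse 5, 6, 7 or 8). Their summed unlogged values were 138578 and 178083 in KO LSK cells, against 126528 and 139976 in WT LSK cells, and 163291 and 173411 in KO myeloid progenitors, against 151015 and 164071 in WT myeloid progenitors. Of 8 measured eosinophil genes, 1 rose and 1 fell in LSK cells (Cebpe by 0.91 ± 0.21, lost without mouse 1, 2, 3, 4, 7 or 8, and Alox15 by 1.94 ± 0.24), and 1 fell in myeloid progenitors (Adgre1 by 0.94 ± 0.20, lost without mouse 5 or 8). Their summed unlogged values were 25118 and 35385 in KO LSK cells, against 31823 and 46188 in WT LSK cells, and 60208 and 65512 in KO myeloid progenitors, against 49638 and 55981 in WT myeloid progenitors. Of 14 measured megakaryocyte and erythroid genes, 1 rose and 2 fell in LSK cells, and 1 rose and 1 fell in myeloid progenitors (Gp5 rose and Pf4 fell in both, and Car2 fell in LSK cells). Each of these 5 calls was lost in some fits without 1 mouse. In LSK cells Gp5 was lost without mouse 1 or 2, Pf4 without mouse 3 or 4 and Car2 without mouse 1, 2 or 3. In myeloid progenitors Gp5 was lost without mouse 8 and Pf4 without mouse 5, 7 or 8. Their summed unlogged values were 12998 and 16437 in KO LSK cells, against 15412 and 19055 in WT LSK cells, and 33366 and 38833 in KO myeloid progenitors, against 36028 and 39023 in WT myeloid progenitors. Their part in the values of the 10 members was not tested.

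Of 8 measured lineage markers, 0 rose and 2 fell in LSK cells (Cd3d and Ms4a1), and 0 rose and 1 fell in myeloid progenitors (Ms4a1). The call of Ms4a1 in LSK cells held without any 1 mouse, while Cd3d was lost without mouse 3, 4, 5, 6, 7 or 8 and Ms4a1 in myeloid progenitors without mouse 5, 6, 7 or 8. Itgam, a myeloid integrin, read 10.55 and 10.18 in KO LSK cells against 10.39 and 10.45 in WT LSK cells, and 10.08 and 9.60 in KO myeloid progenitors against 10.21 and 10.23 in WT myeloid progenitors. The other 7 lay at or below 7.78 in every mouse.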

How the data were processed

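RNA of sorted bone marrow cells was measured on 24 one-colour Cy5 arrays, 3 for each of 8 mice. The deposited values are log2 expression values made by the authors; limma is named, without version or role, per the submitters' processing notes. The log2 scale and a quantile-like normalization between arrays were read from the values, since sorted values of the arrays differed by at most 0.0451 at any rank; scanner, background correction and filters are not given in the sources read. The number of mice, 2 a group, limits the precision. Nothing says that they were separate litters, so p-values of the fit on mouse means measure the spread between these mice.

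Of 22439 probes, 18213 were named by symbol and 2126 by synonym through a RefSeq table (GRCm38.p6), 36 kept the platform's name and 2064 had no symbol. A gene was its brightest probe. The mean of each mouse entered limma 3.58.1, run in R 4.3.3 (lmFit and eBayes with trend and robust options, 4 groups in 1 fit, 4 residual degrees of freedom, median prior 6.91), with two-sided p-values and Benjamini-Hochberg adjustment across the whole table, at a threshold of 0.05.

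The members, lists, tests and rules were chosen with earlier results of these data known. From each list at most 4 called genes per contrast were named, those of largest change, and for Mcpt8, Prss34 and Cpa3 the 5 genes with the highest correlation over the 8 mice, where the brightest group mean lay above the median probe mean of 7.20. Of the members 7 lay above that median and 3 (Cma1, Fcer1a and Ms4a2) below it. Other settings were the single arrays with a random mouse block, the array number as a further replicate block, eBayes without trend and robust options, the compared groups alone, the mean of all probes, a filter on dim probes, centring on the array median, each mouse left out, and mice 1 and 5 left out together.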

Additional observations from a re-analysis of the deposited data

Results flagged for a closer look

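Fcer1a was singled out because its KO and WT mice did not overlap in either population and lay in opposite order in the 2 populations. Cpa3, Fcer1g, Hdc and Epx also had changes of opposite direction, but their mice overlapped in at least 1 population. Neither change of Fcer1a passed the threshold of the fit over all genes. Both KO mice lay below both WT mice in LSK cells (6.21 and 6.03, against 6.40 and 6.40) and above them in myeloid progenitors (7.93 and 7.25, against 6.57 and 7.07). The difference of the changes was -1.05 ± 0.32, given here as a description because the gene was singled out by this pattern. The LSK values lie near the dim end of the arrays.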

How the results depend on the processing

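With all 24 arrays and the mouse as a random block, calls were more numerous. They came to 58 listed genes in LSK cells and 52 in myeloid progenitors (against 27 and 19). Members called were 5 for KO minus WT in myeloid progenitors (against 2) and 3 for the difference of the changes (against 0). The shares of all genes called in these other fits are not given, so nothing is read from the counts of calls in this section. With the array number as a further replicate block the counts were 58, 51, 5 and 3; the same array numbers in different mice are only names, and this block moved no count by over 1.5 times from the random block alone. The limma adjusted p of the difference, given as a description, was then 0.00312 for Mcpt8, 0.00448 for Prss34 and 0.0122 for Fcer1a. The listed genes called in LSK cells were 14 with the compared groups alone, 13 without trend and robust options and 10 without mice 1 and 5, and those in myeloid progenitors 6 without trend and robust options and 7 without mice 1 and 5. Without mice 1 and 5, 2 members were called between the populations in WT mice. With 1 mouse left out, listed genes called ran from 14 to 24 in LSK cells and from 4 to 25 in myeloid progenitors, and members called from 2 to 3 in each, from 3 to 6 between the populations in WT mice and from 3 to 6 in KO mice, with 0 for the difference. The differences between the populations in KO mice changed sign for 3 members, not called in either case: Cma1 ran from -0.13 to 0.30 over the fits without 1 mouse (negative without mouse 2), Fcer1g from -0.35 to 0.40 (negative without mouse 2) and Il4ra from -0.0533 to 0.48 (negative without mouse 2, and -0.0479 without mouse 8). The cause was not tested. A fit without 1 mouse leaves a group with 1 mouse, which is assumed to vary like the others. Of 775 member values under the alternatives, 760 kept their sign and 15 did not, 0 of them called by limma in either fit. The KO minus WT change turned in LSK cells for Fcer1g (-0.13 without mouse 2). It turned in myeloid progenitors for Cpa3 (0.06 without mouse 5, 0.08 without mouse 8), Cma1 (-0.02 without mouse 8), Hdc (0.01 without mouse 6), Il4ra (0.09 without mouse 5, 0.25 without mouse 8) and Epx (-0.41 without mouse 5). With the compared groups alone the difference of the changes has no value. Signals near the dim end, those of Cma1, Cd200r3, and Ms4a2 and Fcer1a in LSK cells, limit what could be seen.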
